A study of Mus musculus with 61 samples.

Results

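Liver negative acute phase and carrier proteins were followed in primary mouse hepatocytes that either had or lacked the interleukin-6 (IL-6) receptor subunit gp130. The genes were named as a list of 9, and every probe annotated to one of them was taken. Probes were found for 8 of the 9, Alb, Afp, Ttr, Rbp4, Ahsg, Fetub, Serpina6 and Serpina7, among 12157 genes that passed the detection filter. Gc, the vitamin D binding protein, had no annotated probe among those used here and is described only by its promoter sequence.

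All mice were C57BL/6. The gp130flox cells came from littermates with floxed gp130 alleles, which the sample labels call wild type, and the gp130- cells came from mice whose floxed gp130 was deleted in hepatocytes by a Cre transgene driven by the albumin promoter. The hepatocytes were plated on collagen, starved overnight and given 200 ng/mL IL-6 without serum for 0, 1, 3, 6 or 12 h. The 61 arrays comprised 7, 6, 6, 7 and 7 gp130flox arrays and 6, 6, 5, 5 and 6 gp130- arrays at these times. All later arrays had received IL-6, and changes from 0 h thus include time in culture.

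The liver secretes most plasma proteins, and during an acute phase response the plasma level of one class of them falls while that of another class rises. Albumin, transthyretin, retinol binding protein and the steroid and thyroid hormone binding globulins belong to the falling class in several species and carry fatty acids, hormones and vitamins. IL-6 acts on hepatocytes through gp130, which works through Janus kinases and STAT3.

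The column headings give a genotype, a time and a number, and arrays that share a genotype and a number are called a preparation here. There were 13 preparations, 7 of gp130flox and 6 of gp130-. Of the 61 arrays, 42 correlated best with an array of their own preparation, while the labels do not say whether a number marks 1 mouse. Numbers 1 to 4 (25 arrays, 5 preparations) stood apart from numbers 6 to 11 (36 arrays, 8 preparations). The genotype differences below are given with this division, and the changes after IL-6 only in part. All arrays of numbers 1 to 4 correlated best with their own preparation, while most gp130flox arrays of numbers 6 to 11 did not. The mean log2 intensity of 7 hepatocyte markers was 5.18 to 6.14 on the arrays of numbers 1 to 4 and 8.14 to 9.46 on those of numbers 6 to 11, and between 2 and 6 of the 7 were detected on an array of the first set. The mean of 3 markers of dividing cells was 8.02 to 9.68 in the first set and 4.79 to 5.47 in the second. Xist, which marks female cells, was detected in gp130- preparations 2 and 3 only, at means of 8.86 and 8.26 beside 4.17 to 4.25 in the other 11. The array of gp130flox number 1 at 3 h correlated at 0.961 to 0.969 with its own preparation, whose other arrays correlated at 0.993 or more. The probe for Il6st, which encodes gp130, differed by -0.97 on the log2 scale in gp130- over the 5 times in the fit of group means (limma adjusted p = 2.1e-10). That fit took each array as independent. With the preparation as a random block and a term for the set of numbers the difference was -0.86 (limma adjusted p = 1.7e-05). Between 15257 and 19256 probes were detected per array. In these bulk samples, fewer cells of a type and less RNA per cell cannot be told apart.

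The promoters of Serpina7, Afp and Alb are printed because Serpina7 and Afp were the members called between genotypes over all preparations and because Afp and Alb are neighbours on chromosome 5 whose levels varied together. Each window runs from 250 bases before to 50 bases after the RefSeq start in GRCm38.p6, 5′ to 3′ on the gene's strand. Capitals mark GTTAAT, a half-site of the hepatocyte factor HNF1. The Serpina7 window is chrX:139085170-139085469 on the minus strand, the Afp window chr5:90490464-90490763 and the Alb window chr5:90460620-90460919, both on the plus strand.
Serpina7: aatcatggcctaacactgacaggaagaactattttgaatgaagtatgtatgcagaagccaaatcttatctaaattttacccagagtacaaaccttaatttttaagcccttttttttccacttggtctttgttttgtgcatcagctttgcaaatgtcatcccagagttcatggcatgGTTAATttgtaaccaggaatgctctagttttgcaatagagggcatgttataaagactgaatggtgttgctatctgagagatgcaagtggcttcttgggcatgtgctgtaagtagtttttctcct
Afp: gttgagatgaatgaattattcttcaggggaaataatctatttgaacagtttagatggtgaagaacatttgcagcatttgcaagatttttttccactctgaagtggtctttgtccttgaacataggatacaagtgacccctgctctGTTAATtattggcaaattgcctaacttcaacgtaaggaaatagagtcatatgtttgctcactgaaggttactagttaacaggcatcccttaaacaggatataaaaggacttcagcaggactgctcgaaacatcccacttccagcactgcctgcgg
Alb: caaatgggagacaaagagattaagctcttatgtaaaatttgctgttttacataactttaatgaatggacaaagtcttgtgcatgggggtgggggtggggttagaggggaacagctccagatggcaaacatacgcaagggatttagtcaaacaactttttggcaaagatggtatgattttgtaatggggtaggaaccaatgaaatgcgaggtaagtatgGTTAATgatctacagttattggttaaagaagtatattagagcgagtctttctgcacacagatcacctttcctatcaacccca
RefSeq windows were at hand for 7 of the 9 genes, Alb, Afp, Gc, Rbp4, Ahsg, Fetub and Serpina7, some with more than 1 start. On either strand, GTTAAT lay in the windows of Alb, Afp, Gc and Serpina7 and in 7.1% of 32851 promoter windows of the same length. Its first base was at -74 in Serpina7, -105 in Afp, -32 in Alb and -52 in Gc, counted from the start. The C/EBP letters TTGCNNAA were found in Alb, Afp, Rbp4, Ahsg and Serpina7 and in 10.8% of all windows. TATAAA was found in Afp, Rbp4, Fetub and Serpina7 and in 13.6% of all. The STAT letters TTCNNNGAA, present in 8.3% of all windows, were in none of the windows of these 7 genes. These matches describe letters and not bound sites.

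Detection differed between the genes. The probes of Ttr, Rbp4, Ahsg and Fetub were detected on all 61 arrays, the main Serpina7 probe on 59, Afp on 53, Serpina6 on 37 and Alb on 36. The signal of the only Alb probe was 29.1 to 184 linear units, while the array medians were 31.8 to 55.6, so that albumin, the most abundant protein of plasma, was read by a probe close to background. Alb was detected on 0 of 10 gp130flox and 1 of 15 gp130- arrays of numbers 1 to 4, and on 22 of 23 and 13 of 13 of numbers 6 to 11. Serpina6 gave 0 of 10, 1 of 15, 23 of 23 and 13 of 13 in the same order. Differences of Alb and Serpina6 within numbers 1 to 4 were therefore below what these probes can show.

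**Figure D1:**
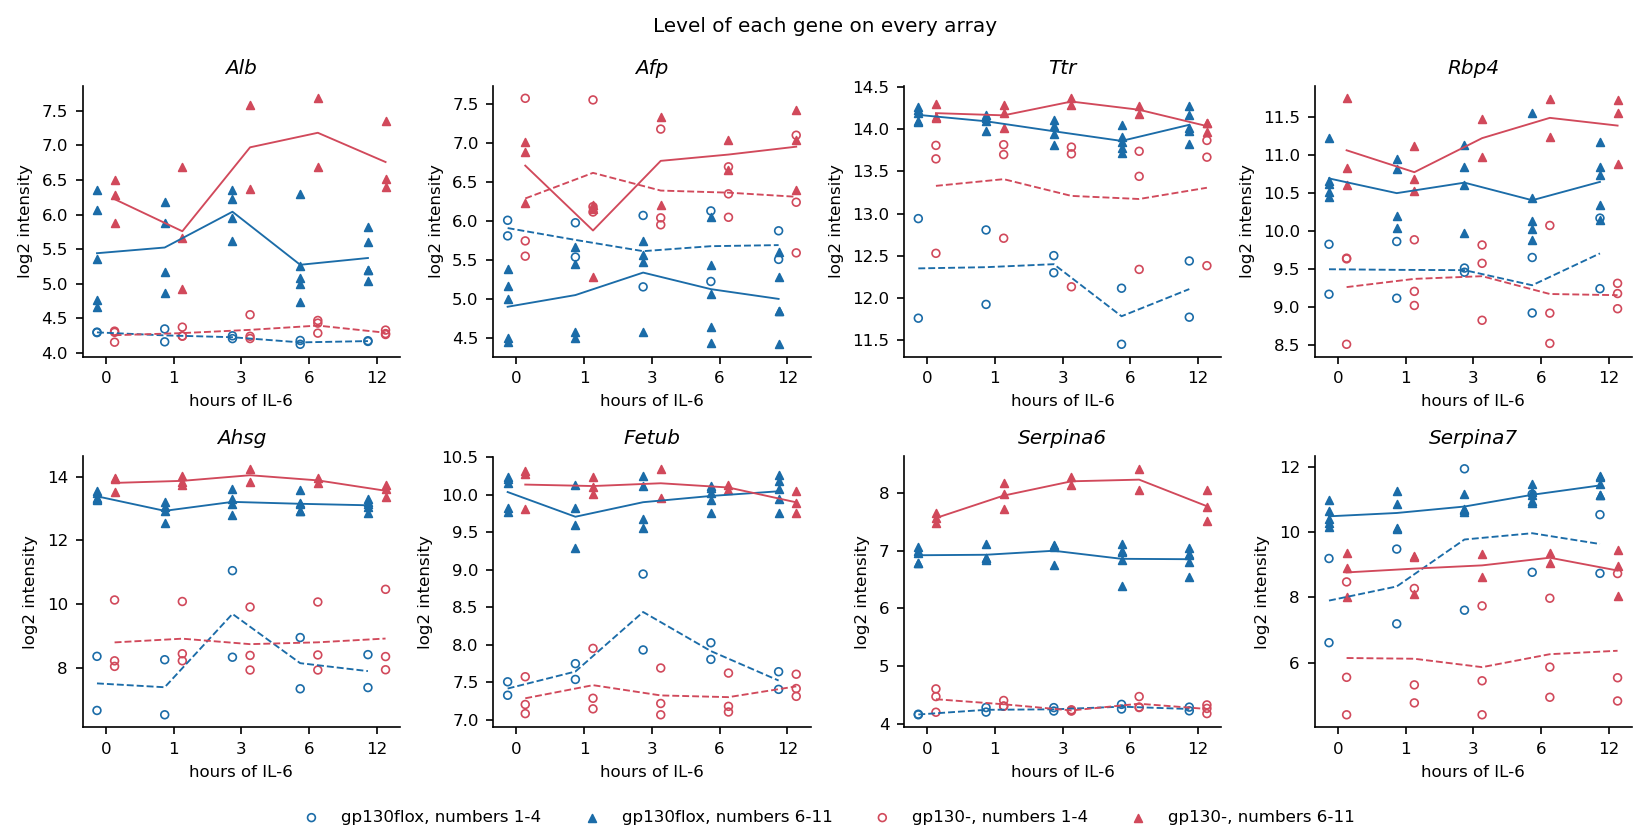
Log2 intensity of the 8 genes on every array (y axis) against hours of IL-6 (x axis), with gp130flox in blue and gp130- in red; open circles and dashed lines are numbers 1 to 4, filled triangles and solid lines numbers 6 to 11, and lines join means. Ahsg, Fetub, Serpina6 and Alb separate by set without overlap, but Serpina6 and Alb were at background in numbers 1 to 4. In numbers 6 to 11 Serpina7 is lower and Serpina6 higher on every gp130- array than on any gp130flox array.

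The first question was which of these genes differed between gp130- and gp130flox hepatocytes. Serpina7 was lower and Afp higher in gp130-, over all 13 preparations and in numbers 6 to 11. Serpina6, Alb, Ahsg and Rbp4 were higher in gp130- in numbers 6 to 11. Ttr and Fetub did not pass the test there.

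Serpina7 encodes thyroxine-binding globulin, the serpin that carries thyroid hormone in plasma. At 12 h its log2 intensity in gp130- was 4.82 at the lowest, 8.38 at the median and 9.45 at the highest array, and in gp130flox 8.73, 11.13 and 11.71. At 0 h the same 3 values were 4.40, 8.24 and 9.36 in gp130- and 6.61, 10.26 and 10.97 in gp130flox. The groups overlapped at 12 h only through gp130flox number 2, and at 0 h through gp130flox numbers 1 and 2. With each array taken as independent, the difference in group means at 0, 1, 3, 6 and 12 h was -2.29, -2.34, -3.34, -3.37 and -3.32 (limma adjusted p = 0.671, 0.552, 0.0901, 0.0558 and 0.0466). The threshold for a call was an adjusted p of 0.05 together with a fold of 1.5, and 0.189%, 0.469%, 0.938%, 1.17% and 0.954% of all genes passed it at these times. Of the 8 genes, Serpina7 and Afp passed it at 12 h and none before. The 12 h call of Serpina7 remained without gp130- number 6, gp130- number 7 or gp130flox number 2, and was lost without any other of the 13 preparations and without 25 of the 61 single arrays, with adjusted p values up to 0.18.

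When the 5 times were averaged and preparation entered as a random block, Serpina7 fell by 2.88 (SE 0.48) in gp130-, 7.36-fold (limma adjusted p = 7.42e-05). In this test 1.62% of all genes were called, Serpina7 and Afp among them. Leaving out each of the 13 preparations gave differences of -3.32 to -2.31 and kept the call. The preparation means were 5.54, 4.66, 8.23, 9.26, 9.16 and 8.20 for gp130- numbers 2, 3, 4, 6, 7 and 9. They were 10.46, 7.78, 11.13, 10.78, 10.74, 11.01 and 10.86 for gp130flox numbers 1, 2, 7, 8, 9, 10 and 11. The ranges overlapped only because gp130flox number 2 lay below 4 of the gp130- preparations. A two-sided exact permutation test of these 13 means gave p = 0.00466, with a smallest possible value of 0.000583. Serpina7 lies on the X chromosome, and the lowest values were those of the Xist-positive gp130- preparations 2 and 3. Without them the difference of means was -1.68 (exact permutation p = 0.0333). A second Serpina7 probe, detected on 47 arrays, fell by 1.75 in the same fit (limma adjusted p = 0.000154).

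Within numbers 6 to 11, Serpina7 was 8.01 at the lowest, 9.06 at the median and 9.45 at the highest of 13 gp130- arrays, and 10.10, 10.96 and 11.71 on 23 gp130flox arrays. All gp130- arrays lay below all gp130flox arrays, which was so for 0.814% of all genes. The difference was -1.97 (SE 0.17, 3.92-fold, limma adjusted p = 1.02e-10), in a comparison that called 7.65% of all genes, and 6 of the 8 genes described here. At 12 h the gp130- arrays of numbers 6, 7 and 9 read 9.45, 8.96 and 8.04, and the gp130flox arrays of numbers 7 to 11 read 11.13, 11.12, 11.71, 11.69 and 11.48. By time the difference was -1.72, -1.71, -1.74, -2.07 and -2.61 from 0 to 12 h, and each passed the test, as did 3.48%, 5.38%, 8.03%, 9.61% and 8.55% of all genes. The second probe differed by -1.70. In numbers 1 to 4 the difference was -2.97 (SE 0.78), which did not pass the test with the block (limma adjusted p = 0.0577), in a comparison that called 1.72% of all genes and none of the 8. There the 5 preparations allow no exact permutation p below 0.1. The mean of gp130- number 4, the only gp130- preparation of this set without Xist, lay between those of gp130flox numbers 1 and 2.

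Afp encodes alpha-fetoprotein, the albumin relative that is made by the fetal liver and mostly silenced after birth. At 12 h its log2 intensity was 5.59, 6.71 and 7.42 at the lowest, median and highest gp130- array and 4.42, 5.28 and 5.87 in gp130flox. At 0 h it was 5.55, 6.56 and 7.57 in gp130- and 4.45, 5.17 and 6.01 in gp130flox. Only gp130- number 3 reached into the gp130flox range at 12 h, and only numbers 3 and 4 at 0 h. With each array taken as independent the 12 h difference was 1.43 (limma adjusted p = 0.0158), a call that was lost without gp130- number 6 or 7, without gp130flox number 7, 10 or 11, and without 3 of the 61 single arrays, the 12 h arrays of gp130- numbers 6 and 7 and of gp130flox number 11. Over the 5 times with the random block, Afp was higher in gp130- by 1.25 (SE 0.33), 2.37-fold (limma adjusted p = 0.0247). This call was lost without any one of gp130- numbers 2, 6 and 7 or gp130flox numbers 7, 10 and 11, where the adjusted p ran up to 0.111 and the difference stayed between 1.11 and 1.38 over all 13 omissions.

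The gp130- preparation means of Afp were 7.22, 5.96, 5.99, 6.68, 6.92 and 6.19, and the gp130flox means 6.01, 5.44, 5.31, 5.14, 5.16, 4.99 and 4.64, in the order of numbers given for Serpina7. Only gp130flox number 1 lay above any gp130- preparation (exact permutation p = 0.00233). Without gp130- numbers 2 and 3 the difference of means was 1.20 (exact permutation p = 0.00606). In numbers 6 to 11 the range was 5.28 to 7.42 in gp130- and 4.42 to 6.05 in gp130flox, and 12 of 13 gp130- arrays lay above every gp130flox array. The difference there was 1.56 (SE 0.21, 2.94-fold, limma adjusted p = 1.07e-06). The array outside was gp130- number 9 at 1 h, at 5.28, and the 1 h difference of 0.84 was the only one of the 5 times that did not pass the test. Afp was detected on 15 of the 23 gp130flox arrays of this set and on all 13 gp130- arrays.

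**Figure D2:**
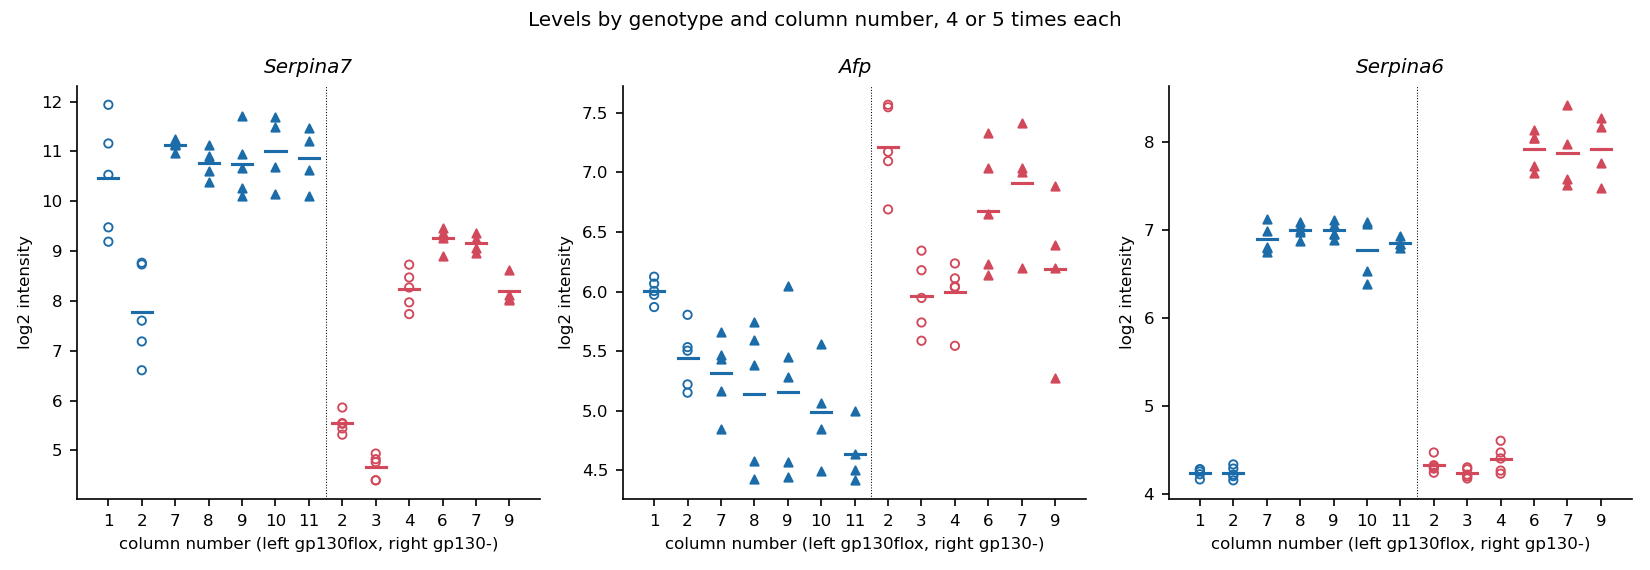
Log2 intensity (y axis) of Serpina7, Afp and Serpina6 in each preparation, ordered by genotype and column number (x axis); points are the 4 or 5 times, bars their mean, open circles numbers 1 to 4 and triangles numbers 6 to 11. Serpina7 is lowest in gp130- numbers 2 and 3, and Serpina6 lies near 4.3 in all preparations of numbers 1 to 4 of both genotypes.

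Serpina6 encodes corticosteroid-binding globulin, the plasma carrier of glucocorticoids. In numbers 6 to 11 its log2 intensity was 7.48, 7.98 and 8.42 at the lowest, median and highest gp130- array and 6.39, 6.95 and 7.12 in gp130flox. All 13 gp130- arrays lay above all 23 gp130flox arrays, which held for 1.02% of all genes. The difference was 1.04 (SE 0.09, 2.05-fold, limma adjusted p = 1.18e-10), and it passed the test at all 5 times, with values of 0.65, 1.04, 1.20, 1.38 and 0.92. Without any 1 of the 8 preparations it was 1.01 to 1.08. Over all 13 preparations the difference was -0.03 without a term for the set and 0.64 with one. Numbers 1 to 4, where the probe was at background and both genotypes read 4.16 to 4.61, made up 3 of the 6 gp130- and 2 of the 7 gp130flox preparations.

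Alb, from its dim probe, was 4.93, 6.51 and 7.68 at the lowest, median and highest gp130- array of numbers 6 to 11 and 4.67, 5.35 and 6.36 in gp130flox. The ranges overlapped, and 9 of 13 gp130- arrays lay above every gp130flox array. The difference was 1.03 (SE 0.22, 2.05-fold, limma adjusted p = 0.00053). At single times it passed the test at 6 h, at 1.80, and at 12 h, at 1.39. Leaving out each preparation gave 0.68 to 1.31 with the call kept.

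Ahsg and Fetub encode the fetuins, liver cystatin-family proteins, of which fetuin-A binds calcium phosphate in plasma. In numbers 6 to 11 Ahsg read 13.34, 13.83 and 14.24 in gp130- and 12.53, 13.18 and 13.60 in gp130flox, and 10 of 13 gp130- arrays lay above every gp130flox array. Its difference was 0.68 (SE 0.10, limma adjusted p = 2.73e-06). A second Ahsg probe gave 0.38 and did not pass the test (limma adjusted p = 0.115), so the 2 probes disagree on the call. Fetub read 9.76, 10.07 and 10.35 in gp130- and 9.29, 10.02 and 10.27 in gp130flox, with a difference of 0.14 (95% interval -0.05 to 0.33).

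Rbp4 encodes the plasma carrier of retinol, which circulates bound to transthyretin, the product of Ttr and itself a thyroxine carrier. In numbers 6 to 11 Rbp4 was 10.52, 11.12 and 11.75 in gp130- and 9.88, 10.60 and 11.56 in gp130flox. The difference of 0.63 (SE 0.20, 1.54-fold) passed the test (limma adjusted p = 0.0202), and the call was lost without gp130- number 7, at 0.58, or without number 9, at 0.56. Ttr was 13.97, 14.18 and 14.37 in gp130- and 13.72, 14.05 and 14.27 in gp130flox, a difference of 0.16 (95% interval 0.04 to 0.28) that did not pass (limma adjusted p = 0.0547). In numbers 1 to 4 the Ttr difference was 1.08 (limma adjusted p = 0.0792). There gp130- numbers 2 and 3 read 13.44 to 13.87, gp130- number 4 read 12.14 to 12.71, and both gp130flox preparations read 11.45 to 12.94. Among these, only gp130- numbers 2 and 3 were Xist-positive. The part of this in the Ttr difference of numbers 1 to 4, here and in the next comparison, was not tested. The genotype difference of Ttr was smaller in numbers 6 to 11 than in 1 to 4, at -0.92 (SE 0.25, limma adjusted p = 0.0137), in a test that called 5.76% of all genes. For Afp, Rbp4, Ahsg, Fetub and Serpina7 the difference between sets did not pass this test, and for Alb and Serpina6 it cannot be read, since neither was measurable in numbers 1 to 4.

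**Figure D3:**
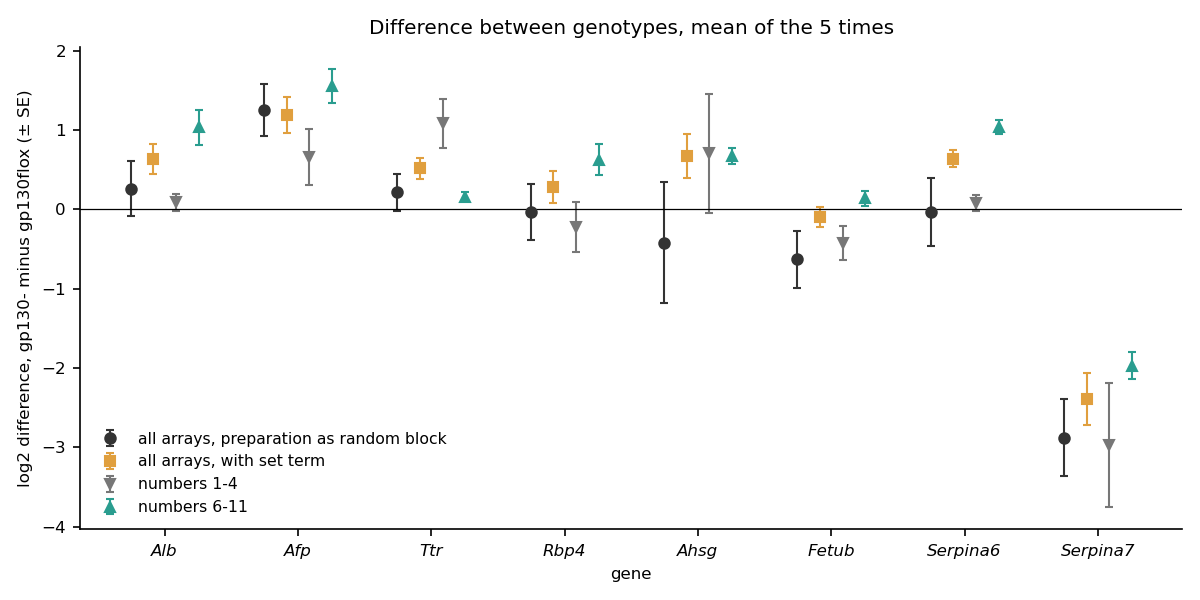
Log2 difference of gp130- minus gp130flox over the mean of the 5 times (y axis) for each gene (x axis), with SE bars, from 4 fits: all arrays with the preparation as a random block, the same with a term for the number set, numbers 1 to 4 alone, and numbers 6 to 11 alone. Serpina7 lies below 0 in all 4, at -2.88, -2.39, -2.97 and -1.97, and Afp above 0. All fits but the last include the Xist-positive gp130- preparations 2 and 3. Ahsg lies below 0 only in the first fit. Serpina6 lies near 0 in the first fit and in numbers 1 to 4, where its probe was at background.

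With the set as a term beside the random block, Serpina7 fell by 2.39 and Afp rose by 1.19, Serpina6 by 0.64 and Alb by 0.64, and all 4 passed the test, which called 4.4% of all genes. The Serpina6 and Alb values include the arrays of numbers 1 to 4 on which these probes were at background. Ttr was higher by 0.52 (limma adjusted p = 0.00448), under the fold threshold. The median difference of the 8 genes in numbers 6 to 11 was 0.65, beside 0.0025 for all genes tested. Over the preparation means of that set, Serpina7, Afp, Serpina6, Rbp4 and Ahsg each gave an exact permutation p of 0.0179, the smallest that 3 against 5 preparations allow, Alb gave 0.0357, Ttr 0.0714 and Fetub 0.482. These belong to 40 such two-sided tests, and they are not adjusted.

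Hepatocyte markers moved in the same comparison. In numbers 6 to 11, 5 of 7 were higher in gp130- and none lower, with a median of 0.89, and their mean level was 8.92 to 9.46 in gp130- and 8.14 to 8.63 in gp130flox. Cps1, the urea cycle enzyme, was higher by 1.71, and Asgr1, the asialoglycoprotein receptor, by 0.89. None of the 5 macrophage, 5 endothelial, 4 stellate, 3 dividing cell or 1 leukocyte markers tested was called, and 1 of 3 cholangiocyte markers was lower. The part of the hepatocyte markers in the differences above was not tested.

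Other genes of the pathway were counted for comparison. Of 20 other plasma carriers and inhibitors tested in numbers 6 to 11, 2 were higher in gp130- and none lower, while 4.04% of all genes were called higher and 3.61% lower. A count of 2 in 20 is near that background and is no result about these carriers as a group. The 2 genes were Afm, the albumin relative that carries vitamin E, at 0.73 (limma adjusted p = 0.00105), and Apoh at 0.59 (limma adjusted p = 0.00733). Their list median was 0.17. Among 10 tested genes that handle the ligands of these carriers, 4 were higher and 1 lower. Dio1, which activates thyroxine, was higher by 1.53, Ttpa, the vitamin E transfer protein, by 1.07, Thrsp, a thyroid hormone responsive gene, by 1.04, and Rdh10, which oxidises retinol, fell by 1.23. Of 13 liver transcription factors, Nr1i3 was higher by 0.93, while Cebpb fell by 0.74 and Zbtb20, a repressor of Afp in mouse liver, fell by 0.71. Zhx2, which also represses Afp in mouse liver, differed by -0.14 (limma adjusted p = 0.688). For contrast, 16 of 21 positive acute phase genes were lower in gp130- and none higher, with a median of -0.98.

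The second question was how the genes changed after IL-6. With each array taken as independent, none of the 8 passed the test in gp130flox, where 0.0247%, 0.0823%, 0.0411% and 0.074% of all genes were called at 1, 3, 6 and 12 h, nor in gp130-, where 0% were called. None of the 8 had an unadjusted limma p under 0.05 in either genotype. Each array was therefore also set against the 0 h array of its own preparation. In that paired fit Serpina7 rose in gp130flox at 6 and 12 h. No other of the 8 genes was called at 1, 3, 6 or 12 h, when 0.255%, 0.757%, 0.74% and 0.855% of all genes were. In gp130- the paired fit called none of the 8 and 0%, 0.0411%, 0% and 0% of all genes, and the lowest unadjusted limma p among the 8 was 0.0284, of Serpina6 at 6 h. Alb and Serpina6 were each detected on 1 of 15 gp130- arrays of numbers 1 to 4, which limits this fit for them. In gp130- numbers 6 and 7 Serpina6 rose by 0.39 and 0.84 at 6 h. At 12 h it changed by 0.40, -0.06 and 0.28 in numbers 6, 7 and 9.

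The paired change of Serpina7 at 12 h was 1.34, 2.12, 0.17, 0.74, 1.44, 1.54 and 0.85 in gp130flox numbers 1, 2, 7, 8, 9, 10 and 11. At 6 h it was 1.97, 2.16, 0.18, 0.52, 0.69, 1.33 and 0.59. All 7 preparations rose at both times, most of all numbers 1 and 2 at 6 h, and number 7 hardly at all. With the preparation as a fixed block the change was 1.06 at 6 h (SE 0.22, 2.09-fold, limma adjusted p = 0.00242) and 1.17 at 12 h (SE 0.22, 2.25-fold, limma adjusted p = 0.0005). At 3 h all 6 preparations were higher, by 0.19 to 2.75, and the change of 0.79 did not pass the test. The highest of these was the array of number 1 that stood apart, without which the change was 0.45 (limma adjusted p = 0.491). Without any 1 of the 7 gp130flox preparations the call held at 6 h, with changes of 0.88 to 1.21, and at 12 h, with 1.01 to 1.34. With the random block, which called 0.625% of all genes, the 12 h change missed the threshold (limma adjusted p = 0.0568). In numbers 6 to 11 alone it was 0.95 (limma adjusted p = 0.0222), in a test that called 1.14% of all genes, and at 6 h 0.66 (limma adjusted p = 0.196), where 0.905% were called.

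In gp130- the Serpina7 changes at 12 h were -0.01, 0.42, 0.26, 0.55, -0.40 and 0.02 for numbers 2, 3, 4, 6, 7 and 9, with 4 above and 2 below 0. Their fitted mean was 0.14 (95% interval -0.32 to 0.60). All gp130- changes lay below those of 6 of the 7 gp130flox preparations. The gp130- change minus the gp130flox change was -1.03 (SE 0.32), with an unadjusted limma p of 0.00226 that did not pass over all genes (limma adjusted p = 0.218). In this fit 0.255% of all genes were called.

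**Figure D4:**
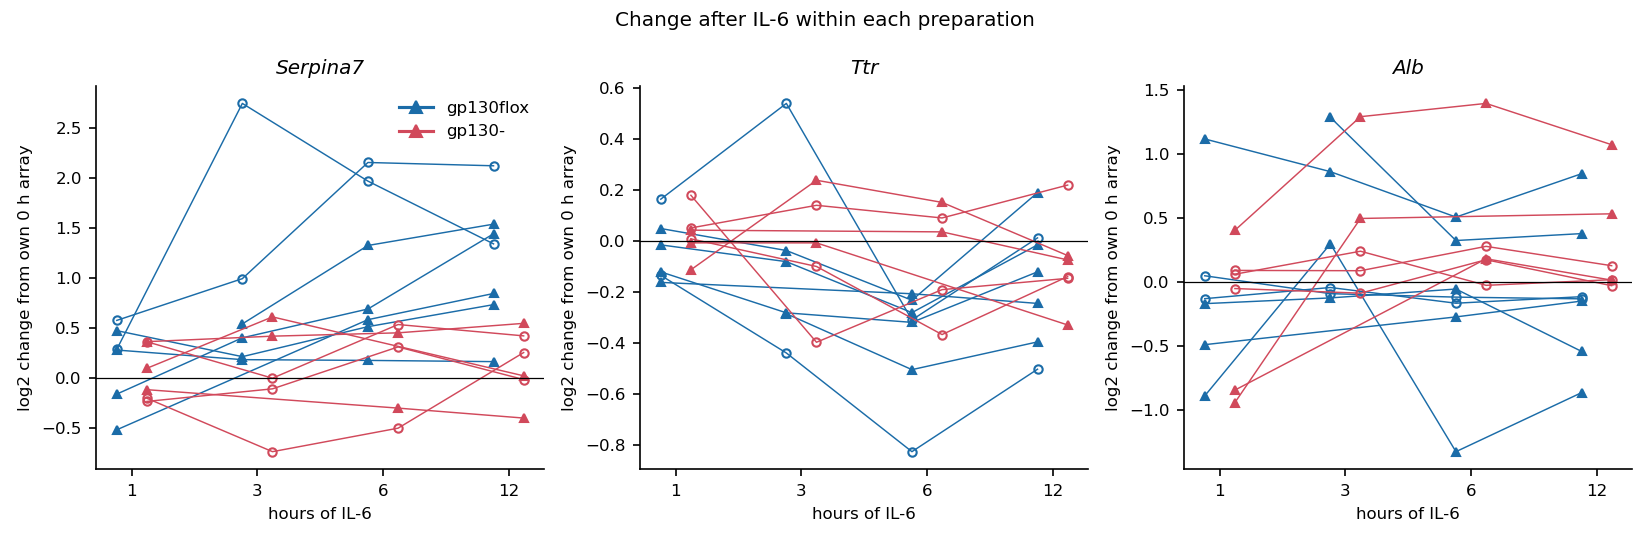
Log2 change from the 0 h array of the same preparation (y axis) against hours of IL-6 (x axis) for Serpina7, Ttr and Alb, with 1 line per preparation, gp130flox in blue, gp130- in red, open circles numbers 1 to 4 and triangles numbers 6 to 11. Every gp130flox line of Serpina7 is above 0 at 6 and 12 h, and every gp130flox line of Ttr is below 0 at 6 h.

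Ttr fell slightly in gp130flox at 6 h. Its change was -0.82, -0.31 and -0.21 at the lowest, median and highest of the 7 preparations, all of them below 0. The fitted change of -0.38 (SE 0.09, 1.30-fold) had a limma adjusted p of 0.0101 and was under the fold of 1.5 needed for a call, and without gp130flox number 2 it was -0.31 (limma adjusted p = 0.0839). In gp130- 3 of 5 preparations were above 0 and 2 below, and the difference of the changes was 0.31 (limma adjusted p = 0.393). At 12 h the Ttr change in gp130flox was -0.15 (95% interval -0.33 to 0.02).

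The other genes gave no call at any time. In gp130flox at 12 h the fitted change was -0.07 for Alb in numbers 6 to 11 (95% interval -0.65 to 0.51), 0.01 for Afp (-0.44 to 0.46) and 0.03 for Rbp4 (-0.39 to 0.44). It was -0.09 for Ahsg (-0.65 to 0.47) and 0.04 for Fetub (-0.21 to 0.29). The values of Afp, Rbp4, Ahsg and Fetub pool both sets of numbers. Ahsg changed by 0.72 and 0.05 in gp130flox numbers 1 and 2 and by -0.70 to -0.04 in numbers 7 to 11. Serpina6, which could be read in numbers 6 to 11 only, changed there by -0.07 (95% interval -0.31 to 0.17). A 2-fold fall lay outside the intervals of Rbp4, Ahsg, Fetub and Serpina6. For Alb and Afp the intervals do not bear on such a fall, since many gp130flox arrays of these genes were too close to background to show it. Alb changes of the 5 single preparations of numbers 7 to 11 ran from -0.87 to 0.84, with 2 up and 3 down, and at 0 h number 10 was not detected. Ahsg was lower at 1 h in all 6 gp130flox preparations, with changes of -1.01 to -0.07, without passing the test. Of 21 positive acute phase genes, 5 rose at 12 h in gp130flox with the random block and none fell, while none of the 20 other plasma carriers was called.

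The third comparison was between the sets of numbers. With genotype and preparation in the fit, 7 of the 8 genes were higher in numbers 6 to 11, where 15.6% of all genes were called higher and 20.5% lower. Serpina6 and Alb are among the 7, but they passed the detection filter only through numbers 6 to 11. The filter thus fixed the direction of these 2. The median difference of the 8 was 2.00, or 1.88 with Alb and Serpina6 at the lower bounds given further on, beside -0.02 for all genes. Ahsg differed by 5.01 (SE 0.28, 32.2-fold), Fetub by 2.45 (SE 0.13), Serpina7 by 2.26 (SE 0.33), Rbp4 by 1.51 (SE 0.20) and Ttr by 1.35 (SE 0.14). For Serpina6 and Alb, each detected on 1 of 25 arrays of numbers 1 to 4, the size is known only as a bound. Afp differed by -0.22 (95% interval -0.67 to 0.24). Every array of numbers 6 to 11 lay above every array of numbers 1 to 4 for Ahsg and Fetub, and for 4.18% of all genes. The same was seen for Serpina6 and Alb, where it follows from the filter and is no result.

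Ahsg showed the set difference most plainly. In gp130- it read 7.93, 8.38 and 10.46 at the lowest, median and highest array of numbers 1 to 4 and 13.34, 13.83 and 14.24 in numbers 6 to 11. In gp130flox it read 6.52, 8.29 and 11.04 against 12.53, 13.18 and 13.60. The value of 11.04 was again number 1 at 3 h, next to 6.52 to 7.37 on the other 4 arrays of that preparation, and without that array the set difference was 5.19. Fetub read 7.06, 7.28 and 7.95 against 9.76, 10.07 and 10.35 in gp130- and 7.32, 7.69 and 8.94 against 9.29, 10.02 and 10.27 in gp130flox. Since no gp130flox array of numbers 1 to 4 detected Serpina6 or Alb, these were at least 5.22-fold and at least 1.98-fold higher in gp130flox numbers 6 to 11. These bounds set the mean of the second set against the lowest signal among detected probes on the first set's arrays. Their direction was fixed by the detection filter, as said above, and is no result.

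Ttr read 11.45, 12.21 and 12.94 in gp130flox numbers 1 to 4 against 13.72, 14.05 and 14.27 in numbers 6 to 11, and 12.14, 13.67 and 13.87 against 13.97, 14.18 and 14.37 in gp130-. Its two-sided exact permutation p over 8 against 5 preparation means was 0.000777, the smallest possible, as for Rbp4, Ahsg and Fetub. Serpina7 gave 0.0117 and Afp 0.277. The values of Serpina6 and Alb are left out, since the detection filter fixed their direction. The other plasma carriers went the same way, with 19 of 20 higher in numbers 6 to 11 and a median of 3.21, Apoa1 at 5.62 and Igf1 at 3.49. Of the 13 transcription factors, 1 was higher and 7 lower, with Zbtb20 at -1.71, Prox1 at -1.27, Hnf4a at -0.78 and Zhx2 at -0.60. Of the 7 hepatocyte markers, 6 were higher and Apob was lower, 5 of 5 macrophage and 4 of 5 endothelial markers were higher, and all 3 dividing cell markers were lower. The mean level of the macrophage markers was 4.71 to 7.18 in numbers 1 to 4 and 7.18 to 8.21 in 6 to 11, and that of the endothelial markers 4.32 to 4.95 and 5.79 to 6.56. The cholangiocyte and stellate markers went the other way. Their mean level was 7.37 to 8.54 and 5.88 to 6.62 for 3 cholangiocyte markers, and 5.30 to 6.83 and 4.76 to 5.38 for 4 stellate markers. The 1 leukocyte marker was near background in both sets. The part of these markers, and of whatever else sets the numbers apart, in the set difference was not tested.

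Within numbers 6 to 11 the genes varied from array to array in groups. After removal of the mean of each genotype, time and set, Afp correlated with Rbp4 at 0.63, with Alb at 0.60 and with Ahsg at -0.59 over the 36 arrays (Pearson's r). Ahsg correlated with Fetub at 0.62, and Alb with Fetub at -0.61. On the 23 gp130flox arrays alone, Afp with Rbp4 gave 0.80, Alb with Afp 0.66 and Alb with Fetub -0.73. On the 13 gp130- arrays the same pairs gave 0.20, 0.49 and -0.35. Alb and Rbp4 themselves gave 0.05 over the 36 arrays, 0.33 in gp130flox and -0.52 in gp130-. The arrays share 8 preparations and each array's scaling, so these are descriptions only. The spread was of unlike kinds, since the SD between preparations was 2.53 for Ahsg and 2.12 for Serpina7 but 0.79 for Afp and Ttr, and the SD within preparations ran from 0.18 for Ttr to 0.57 for Ahsg.

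**Figure D5:**
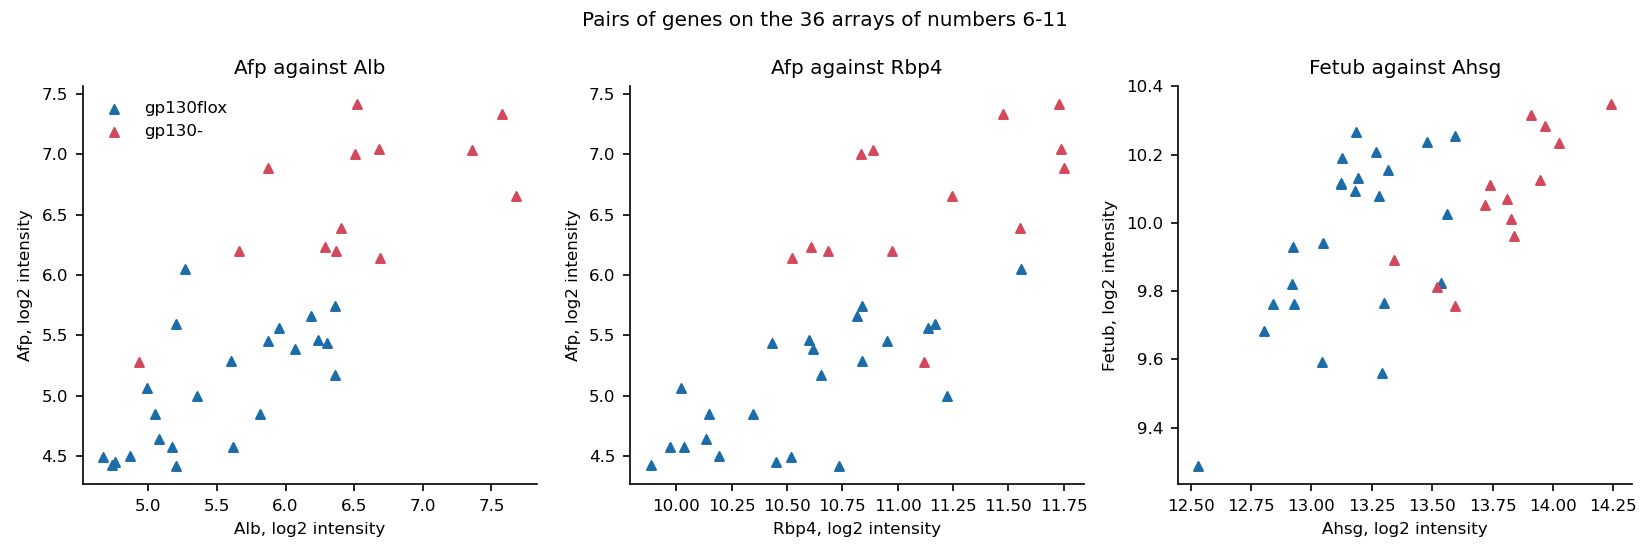
Log2 intensity of Afp against Alb, Afp against Rbp4 and Fetub against Ahsg on the 36 arrays of numbers 6 to 11, with gp130flox in blue and gp130- in red. Afp rises with Alb within both genotypes and with Rbp4 in gp130flox, and the gp130- arrays lie higher for Afp.

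Over all 61 arrays, the gene outside the list whose pattern was most like that of Serpina7 was Cxcl1, a chemokine (r = 0.95), before Slc41a2 (0.93) and Hp, haptoglobin (0.90). For Afp they were Cyp2a4 (0.83), Rec114 (0.76) and Bco1 (0.74), and after removal of group and set means the first was Afm (0.76), its neighbour in the albumin family. Serpina6 was most like Cyp4a31, Hpd and Aspdh (0.99 each), Ttr most like Apom (0.94), Fetub most like C6 (0.98), Ahsg most like Rpl22 (0.98), Alb most like Aadac (0.90) and Rbp4 most like Ndufb9 (0.94). These values include the differences between genotypes and sets. After removal of group and set means, Serpina7 was most like Aqp8 (0.93), Aldh1a7 (0.92) and Aox3 (0.92), and no longer Cxcl1 or Hp. Serpina6 was then most like Cyp17a1 (0.59), Ttr Bdnf (0.95), Fetub Ipo4 (0.82), Ahsg Acta2 (0.87), Alb Cstf3 (0.78) and Rbp4 Cfb (0.86).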

How the data were processed

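Hepatocyte RNA from 61 samples was hybridised to Illumina MouseWG-6 v2 arrays. The authors read the arrays with GenomeStudio 1.6.0, per the submitters' processing notes, and deposited a table of raw summarised probe intensity, in which every signal is followed by the p-value of its detection above control beads. A value table of cubic spline normalized intensity (array medians 39.56 to 39.57) was deposited too and is used here as an alternative. The deposited intensity of 45281 probes was corrected for background and quantile normalized with neqc (limma 3.58.1, R 4.3.3), adding an offset of 16 before log2. Of the probes, 34885 named 1 gene in the platform annotation, 18 several and 10378 none. Probes detected at a p-value under 0.05 on at least 5 arrays were kept, 19543 in number, and the probe of highest mean stood for a gene, which left 12157 genes. Each of the 61 signal columns was assigned to a group by its name, and its detection p-value was taken from the column of the same name.

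Group means of genotype and time were fitted with limma, as the methods name no block, with Benjamini-Hochberg adjustment over all genes. The genotype difference averaged over the times used the preparation as a random block. Column numbers were examined as a pairing: over 114 pairs of arrays of 1 preparation the deviations from group means correlated at a median of 0.856 and at 0.276 or more. These deviations still hold the difference between the sets of numbers, so they cannot show that arrays pair by number within a set. The correlation within preparations in the random block fit was 0.64 over all arrays, 0.52 in numbers 1 to 4 and 0.15 in numbers 6 to 11. The paired fits are printed beside the results they change. A supplementary legend of the study gives 5 mice per genotype, fewer than the 7 and 6 preparations, and nothing says which mouse a number stands for. P-values measure the spread between these samples, and would be too small if preparations share a mouse. The 95% intervals are normal intervals from the SE of the fit. The genotype-by-set test, the leave-one-out runs of the paired fits and those within numbers 6 to 11 were chosen after seeing the data. On simulated data with 200 of 12157 genes changed, the random block fit of genotypes recovered 98% of the 2-fold and 100% of the 4-fold changes with 32 false calls, and the main fit at 12 h recovered 91% and 100% with 8. The fixed block fit of the gp130flox change at 12 h recovered 100% of both with 0 false calls, and the main fit of that change 92% and 99% with 0. The simulated preparations held no difference between the sets of numbers. The recovery by the main and random block fits therefore does not give their power in these data.

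The members and lists were chosen with earlier results of these data known. All 9 members were named, with every detected probe, and of the carrier, transcription factor and ligand handling lists up to 4 called genes each, the positive acute phase list being counted only. Other genes, such as Zhx2, Cps1, Asgr1 and Igf1, were named after their values were seen. For each member the genes of most similar pattern were ranked by Pearson's r over 61 arrays. Promoter windows came from RefSeq (GRCm38.p6). Alternatives were an offset of 50, quantile normalization of uncorrected signals, the cubic spline table, other detection filters, every probe, array weights, block and set terms, each set alone, and leaving out arrays and preparations. The number of arrays limits the precision.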

Additional observations from a re-analysis of the deposited data

Results flagged for a closer look

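Within groups of 5 to 7 arrays, 7 of 80 combinations of gene, genotype and time held an array far from the others by Dixon's gap, and chance gives about 1 in 20. Ttr was lowest in gp130- number 4 at 0 h, at 12.53 with the next array at 13.65, at 1 h, at 12.71 with the next at 13.70, and at 12 h, at 12.39 with the next at 13.67. Serpina7 was lowest in gp130flox number 2 at 0 h, at 6.61 with the next array at 9.19, at 3 h, at 7.60 with the next at 10.60, at 6 h, at 8.77 with the next at 10.90, and at 12 h, at 8.73 with the next at 10.53. Each of these 2 runs is 1 preparation seen at several times, and both belong to numbers 1 to 4.

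The genotype difference was not alike in the 2 sets of numbers for Ttr, by a limma test of the difference itself, adjusted over all genes. It was read for the 6 genes that were measurable in both sets. Numbers 6 to 11 minus numbers 1 to 4 gave -0.92 (limma adjusted p = 0.0137), and gp130- number 4, the array run named above, lay near gp130flox in numbers 1 to 4. Number 4 had no Xist, like gp130flox, while the higher gp130- numbers 2 and 3 were the Xist-positive preparations (8.86 and 8.26). The part of this was not tested.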

How the results depend on the processing

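With each array as independent, 2 members were called between genotypes at 1 time or more, as were 1.72% of all genes. The count was 0 at an adjusted p under 0.01 and with only the groups compared, and 1 with every probe, without a detection filter, in numbers 1 to 4 alone and without gp130- numbers 2 and 3, where 0.584% to 2.87% of all genes were called. It was 4 with the set as a term (7.64% of all genes), 5 in numbers 6 to 11 alone (15.4%) and with the random replicate block and the set as a term (8.93%), and 6 with array weights (32.2%), so the share of all genes rose with the count. Leaving out 1 array or preparation gave 0 to 2. For the mean of the times the count of 2 (1.62% of all genes) became 0 in numbers 1 to 4 (1.72%), 6 in numbers 6 to 11 (7.65%) and 4 with the set term (4.4%), and 1 to 2 without 1 preparation. After IL-6 the count in gp130flox was 0 and became 1 with the fixed replicate block, and it was 0 throughout the omissions. Serpina7 also passed at 12 h in numbers 6 to 11 alone with the random block, a fit that is not among these counts. The counts for gp130- and for the difference of changes stayed at 0 under every alternative run, and 7 members differed between sets without any 1 preparation. Alb and Serpina6 are among the 7 and passed the detection filter only through numbers 6 to 11.

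Directions of uncalled genotype differences turned with the set of numbers. Ahsg went from -0.42 to 0.71 in numbers 1 to 4, 0.68 in 6 to 11, 0.67 with the set term and 0.64 without gp130- numbers 2 and 3. Rbp4 went from -0.04 to 0.63 in 6 to 11, 0.28 with the set term and 0.32 without gp130- numbers 2 and 3. Serpina6 went from -0.03 to 0.10 with an offset of 50, 0.065 with quantile normalization alone, 0.078 in 1 to 4, 1.04 in 6 to 11, 0.64 with the set term and 0.89 without gp130- numbers 2 and 3. The set difference of Afp was 0.22 in gp130- alone. Without 1 preparation the ranges crossed 0 for Ahsg (-1.06 to 0.23), Alb (-0.095 to 0.49), Rbp4 (-0.26 to 0.26), Serpina6 (-0.40 to 0.34) and the set difference of Afp (-0.36 to 0.00015). The cause was not tested. Signals near background limited Alb and Serpina6 in numbers 1 to 4. No scaling moved the median of all genes by over 0.1. Each scaling makes the arrays alike in level, so this was nearly fixed in advance.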
